A study of Arabidopsis thaliana with 12 samples.

Results

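Aldehyde dehydrogenases (ALDH) are a superfamily of enzymes, each named by its family number and subfamily letter. The 8 genes described here are those whose symbol starts with ALDH and a digit and for which a probe set of the Affymetrix ATH1 array names that gene alone. They are ALDH2C4, ALDH3F1, ALDH6B2, ALDH7B4, ALDH10A8, ALDH10A9, ALDH11A3 and ALDH22A1, out of 13356 genes with such a probe set. Each has 1 such probe set, so no choice between probe sets was needed, and no filter on low values was applied. A list of 16 superfamily loci in Arabidopsis thaliana holds these 8 and 8 more (ALDH2B4, ALDH2B7, ALDH3H1, ALDH3I1, ALDH5F1, ALDH12A1, P5CS1 and P5CS2), which are not analysed here. A gene is called measured below where a probe set names it alone in the annotation used. The array holds 8730 further probe sets without a name there and 503 that name several genes, so a gene not measured in this sense may still have probes. Symbols came from the platform annotation and were updated through the TAIR10.1 gene table.

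ALDH enzymes oxidise aldehydes to carboxylic acids with NAD or NADP as the acceptor. In plants they remove reactive aldehydes that form when membrane lipids are peroxidised, and they also catalyse fixed steps of amino acid breakdown, sugar phosphate oxidation, phenolic acid synthesis and the oxidation of aminoaldehydes from polyamines and choline. Transcripts of several members are known to increase in drought, salt and abscisic acid treatment.

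Leaves of wild type (accession Col-0) and of cs26, a single SALK insertion line in a gene for a plastid S-sulfocysteine synthase, were each sampled in 2 photoperiods, with 3 arrays in each of the 4 groups. Long-day plants had 16 h of light and 8 h of dark and were 3 weeks old, and short-day plants had 8 h of light and 16 h of dark and were 5 weeks old. All groups grew on soil with a nutrient supplement, at 20 °C by day and 18 °C by night, and no chemical treatment is recorded. Photoperiod and plant age changed together and cannot be told apart. The study's question was which transcripts the mutation alters under either day length.

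Values are RMA values on a log2 scale, deposited with 2 decimals. All 8 probe sets were brighter than most, from the 69th percentile (ALDH22A1) to the 96.6th (ALDH11A3) of mean brightness over 22746 probe sets. The level of a probe set also depends on its probes, so levels are compared between groups for 1 gene and not between genes. The residual SD of the members had a median of 0.15, against 0.139 over all probe sets. Differences are given with the standard error (SE) of a limma model over all 12 arrays, and a gene is called at an adjusted p under 0.05 (Benjamini-Hochberg over all probe sets).

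Arrays that stood apart were replicate 2 of wild type in long days, where the 25S ribosomal RNA control probe set read 9.64 against 4.53 to 5.12 on the other 11 arrays, and replicate 2 of cs26 in short days, whose deviations from the mean of its group were the widest (SD 0.208 over all probe sets, where the other arrays had 0.104 to 0.155). The Bacillus control transcripts averaged 6.68 to 6.81 in wild type and 6.19 to 6.37 in cs26 in long days, without overlap, and 5.43 to 5.93 in short days. The 3′ minus 5′ signal of the actin control was 2.6 to 3.52 in long days and 3.24 to 3.99 in short days. Within cs26 it did not overlap between long days (2.6 to 3.18) and short days (3.72 to 3.99). Nor did that of the GAPDH control in cs26 (0.87 to 0.92 and 1.19 to 1.27). In wild type both overlapped (actin 2.87 to 3.52 and 3.24 to 3.74, GAPDH 0.83 to 1.32 and 0.97 to 1.3). The leaf gene RCA (Rubisco activase), the only 1 of 8 mesophyll markers measured, read 13.03 to 14.06, and the only 1 of 3 root markers measured read 3.71 to 4.27. Of the other cell type markers, 1 of 2 for phloem (SWEET11), 2 of 3 for guard cells (SPCH and FMA), 1 of 3 for trichomes (TRY) and 1 of 2 for dividing cells (AUR1) were measured, and those called are given beside the comparisons. RNA came from whole leaves, so a lower value in fewer cells of a type and less RNA per cell cannot be told apart.

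**Figure D1:**
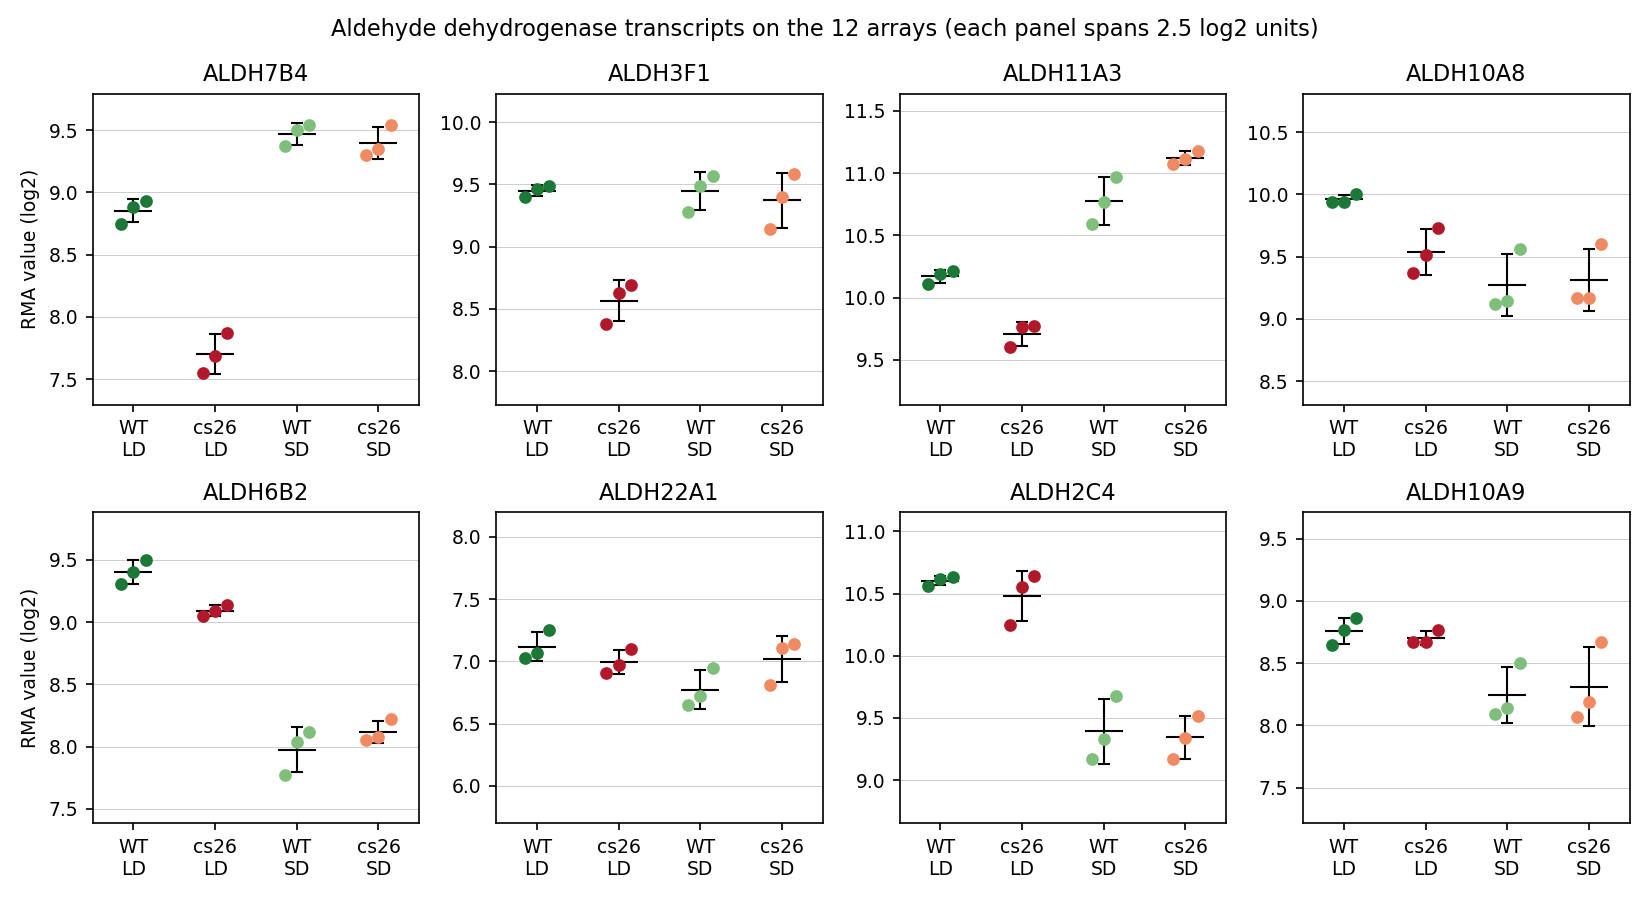
RMA values (log2) of the 8 aldehyde dehydrogenase genes on each of the 12 arrays, with group means and SD (n = 3) as black bars, for wild type (WT) and cs26 in long days (LD) and short days (SD). ALDH7B4, ALDH3F1 and ALDH11A3 have their lowest values on the 3 long-day cs26 arrays, and ALDH6B2 and ALDH2C4 are highest on the 6 long-day arrays.

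In long days 4 of the 8 genes fell in cs26 and none rose by limma. They were ALDH7B4, ALDH3F1, ALDH11A3 and ALDH6B2, and 5 members passed at an unadjusted p under 0.05. Over all probe sets 24.6% were called in this comparison and 11.8% were called lower. Bright probe sets were called more often, with 41.7% called in a fit on those at or above the median brightness, where 5 of the 8 members were called. The fitted difference was below 0 for all 8 members, called or not, from -1.15 to -0.06, against 51.9% of all probe sets. That share is not given for the brighter probe sets alone, and the 95% intervals of ALDH10A9, ALDH2C4 and ALDH22A1 included 0. The median of the 8 was -0.37, against -0.01 over all probe sets. Values of cs26 and wild type did not overlap for 5 members (38.2% of all probe sets). Leaving out replicate 2 of wild type, which had the high 25S reading, left 3 members called. The same number stayed called without replicate 1 of wild type or without replicate 2 or 3 of cs26. The lower Bacillus control signal of cs26 in long days moved with these falls, as did a fall of the trichome marker TRY (-0.48 ± 0.15, adjusted p = 0.0392, 5.95 to 6.48 in wild type and 5.72 to 5.81 in cs26) and a rise of SPCH, a factor of the stomatal lineage (0.36 ± 0.09, adjusted p = 0.0073, 3.92 to 3.97 and 4.21 to 4.47). FMA, the other guard cell marker measured, was not called there (-0.03 ± 0.12, adjusted p = 0.909). SPCH was also dim, as the root marker read 3.86 to 4.27 in long-day wild type. The part of the Bacillus signal, TRY or SPCH in the falls was not tested. The TRY call was lost with wild-type replicate 2 (0.167) or 3 (0.11) or cs26 replicate 1 (0.0816), 2 (0.0741) or 3 (0.111) left out.

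ALDH7B4 (AT1G54100), the plant relative of animal antiquitin and a gene known for its induction by dehydration, salt and abscisic acid, had the largest fall of the 8. Its values were 8.93, 8.88 and 8.75 in wild type and 7.87, 7.55 and 7.69 in cs26. Every cs26 array thus lay below every wild-type array. The difference was -1.15 ± 0.10 (log2, SE, n = 3 arrays per group), a 2.22-fold lower value (adjusted p = 2.63e-06), and 95.6% of all probe sets changed by no more than this. It was called in all 13 alternatives computed, from -1.23 to -1.07.

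ALDH3F1 (AT4G36250) belongs to the family whose enzymes oxidise a broad range of aldehydes, those from lipid peroxidation included. Wild-type arrays read 9.4, 9.49 and 9.46, and cs26 arrays 8.63, 8.38 and 8.69. The groups lay clearly apart, with the lowest wild-type value (9.4) well above the highest cs26 value (8.69). The fall was -0.88 ± 0.12, or 1.84-fold (adjusted p = 0.000138), and was called in all 13 alternatives.

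ALDH11A3 (AT2G24270) encodes the non-phosphorylating glyceraldehyde 3-phosphate dehydrogenase of the cytosol, which oxidises the triose phosphate directly to 3-phosphoglycerate with the formation of NADPH. It read 10.21, 10.19 and 10.11 in wild type and 9.76, 9.77 and 9.6 in cs26. The groups did not overlap, and the fall of -0.46 ± 0.10 (1.38-fold, adjusted p = 0.00341) was called in all 13 alternatives.

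ALDH6B2 (AT2G14170) encodes the mitochondrial methylmalonate semialdehyde dehydrogenase of valine breakdown. Its values were 9.5, 9.4 and 9.31 in wild type and 9.14, 9.09 and 9.05 in cs26. The groups did not overlap, but the fall was small, at -0.31 ± 0.10 or 1.24-fold (adjusted p = 0.0357). The call was lost with wild-type replicate 1 (adjusted p = 0.131) or 2 (0.0827) or cs26 replicate 1 (0.0565), 2 (0.0854) or 3 (0.11) left out, and with a trended robust prior (0.0672).

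The other 4 genes were not called in long days. ALDH10A8 (AT1G74920) and ALDH10A9 (AT3G48170) encode the aminoaldehyde and betaine aldehyde dehydrogenases, the former in plastids and the latter in peroxisomes. ALDH10A8 read 10, 9.94 and 9.94 in wild type and 9.73, 9.51 and 9.37 in cs26, without overlap. Its difference of -0.42 ± 0.14 just missed the threshold (adjusted p = 0.0505) and passed it in 6 of 13 alternatives, among them quantile normalization (0.0477), array weights (0.00795) and the fit without replicate 1 of cs26 (0.0313). ALDH10A9 overlapped between the genotypes, with a difference of -0.06 and a 95% interval from -0.38 to 0.26. ALDH2C4 (AT3G24503) encodes the dehydrogenase that makes ferulic and sinapic acid from their aldehydes, and its difference was -0.12 (interval from -0.42 to 0.18). ALDH22A1 (AT3G66658) also differed by -0.12 (from -0.37 to 0.12).

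In short days only ALDH11A3 was called between cs26 and wild type, and in the opposite direction. Its values were 10.77, 10.59 and 10.97 in wild type and 11.11, 11.18 and 11.07 in cs26, so each cs26 array lay above each wild-type array. The rise was 0.34 ± 0.10, or 1.27-fold (adjusted p = 0.0297). It was called in 4 of 13 alternatives, and the call was lost with wild-type replicate 1 (adjusted p = 0.0813) or 2 (0.118) or cs26 replicate 1 (0.0594), 2 (0.0826) or 3 (0.0535) left out, in a fit on the 6 short-day arrays alone (0.0931) and with quantile normalization (0.052). Of all probe sets 16.7% passed in this comparison, 8.89% higher and 7.84% lower (29.6% passed in a fit on the brighter ones), and values did not overlap for 29.8%, against 1 of the 8 members. Hence the share of members called was no higher than that of all probe sets.

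ALDH7B4 and ALDH3F1, which had the largest falls in long days, were nearly level between the genotypes in short days. ALDH7B4 read 9.54, 9.37 and 9.5 in wild type and 9.3, 9.54 and 9.35 in cs26, a difference of -0.07 with a 95% interval from -0.29 to 0.15. ALDH3F1 read 9.57, 9.49 and 9.28 in wild type and 9.58, 9.14 and 9.4 in cs26, also a difference of -0.07 (from -0.34 to 0.19). Both intervals leave out a fall of the size measured in long days. ALDH22A1 (0.25, adjusted p = 0.169), ALDH6B2 (0.14), ALDH10A9 (0.07), ALDH10A8 (0.04) and ALDH2C4 (-0.05) overlapped between the genotypes. The median over the 8 members was 0.05, against 0 over all probe sets.

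**Figure D2:**
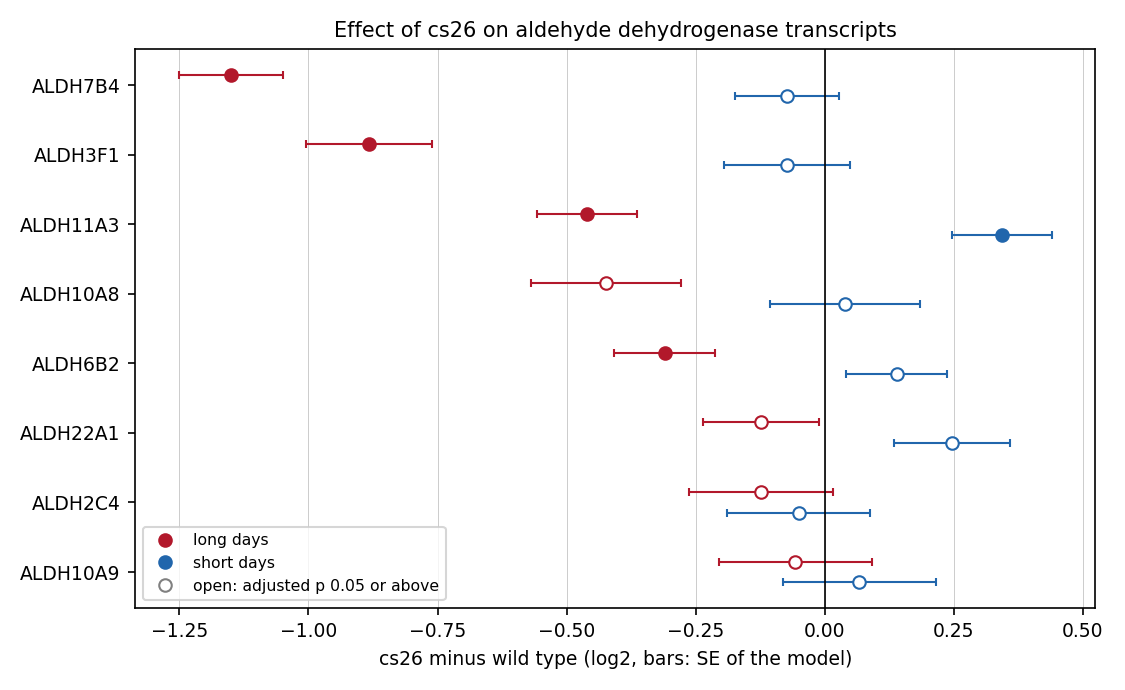
Difference of cs26 from wild type (log2) under both photoperiods for the 8 genes, in order of the long-day difference, with the SE of the model as bars and open symbols at an adjusted p of 0.05 or above. The long-day values run from -1.15 to -0.06, and the short-day values from -0.07 to 0.34.

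The 4 genes called in long days were also the 4 whose cs26 effect differed between short and long days, in a test of that difference itself. That test contains the same long-day arrays, so it gives no independent support to the long-day calls. The difference of effects (short days minus long days) was 1.08 ± 0.14 for ALDH7B4 (adjusted p = 0.000108), 0.81 ± 0.17 for ALDH3F1 (0.00354), 0.80 ± 0.14 for ALDH11A3 (0.000799) and 0.45 ± 0.14 for ALDH6B2 (0.0292). All 4 were less negative or turned positive in short days, and the fitted difference was above 0 for all 8 members, called or not (51.5% of all probe sets). That of ALDH2C4 turned below 0 without replicate 2 of short-day wild type (-0.04), of long-day cs26 (-0.04) or of short-day cs26 (-0.02), and that of ALDH10A9 without the last array (-0.06). Over all probe sets 27.6% were called for this difference and 14.8% were called in this direction, or 45.5% called in a fit on the brighter ones. The first 3 were called in all 18 alternatives. ALDH6B2 was lost without replicate 1 (0.0715) or 2 (0.0535) of long-day wild type, replicate 2 (0.0539) or 3 (0.0665) of long-day cs26, replicate 3 of short-day wild type (0.0551) or replicate 1 of short-day cs26 (0.0663), and with a trended robust prior (0.0534).

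The remaining 4 members were not called for the difference of effects. ALDH10A8 (0.46 ± 0.20, adjusted p = 0.12) was called only without replicate 3 of short-day wild type (0.0307), and ALDH22A1 (0.37 ± 0.16, adjusted p = 0.11) only without that array (0.0492) or without replicate 1 of short-day cs26 (0.0347). ALDH10A9 (0.12) and ALDH2C4 (0.07) were called in none of the 18 alternatives. TRY, a regulator of trichome spacing, rose in short-day cs26 (0.97 ± 0.15, adjusted p = 0.00101, 6.84 to 7.21 in wild type and 7.7 to 8.21 in cs26), and its difference of effects was 1.45 ± 0.22 (adjusted p = 0.000292). AUR1, a kinase of dividing cells, had a difference of effects of -0.54 ± 0.19 (adjusted p = 0.0489), a call kept in 5 of 17 alternatives. It was lost with replicate 1 (0.119) or 2 (0.0932) of long-day wild type, 1 (0.115) or 2 (0.0799) of short-day wild type, 1 (0.0714) or 2 (0.115) of long-day cs26, or 2 (0.0663) or 3 (0.115) of short-day cs26 left out. The part of these markers in the values of the 4 called members was not tested.

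Between photoperiods the family split by gene. In wild type 7 of 8 members were called, 5 lower and 2 higher in short days, where 44.8% of all probe sets were called (23% lower and 21.8% higher), 62.5% were called in a fit on the brighter ones, and values did not overlap for 55.1%, against 7 of the 8. In cs26 6 of 8 were called, 3 lower and 3 higher, where 43.3% of all probe sets were called (21.8% lower and 21.5% higher, 61.8% called in a fit on the brighter ones, and no overlap for 53%, against 5 of the 8). These comparisons share arrays with those above and give no independent support to them. Several cell type markers moved with photoperiod too. SWEET11, a sucrose transporter of the phloem, was lower in short days (-1.09 ± 0.07 in wild type, adjusted p = 8.6e-08, and -0.81 ± 0.07 in cs26), as was FMA, a guard cell factor (-0.81 ± 0.12, adjusted p = 0.000115, and -0.70 ± 0.12). SPCH was lower in cs26 (-0.41 ± 0.09), and TRY was higher (0.79 ± 0.15 in wild type and 2.24 ± 0.15 in cs26). The actin and GAPDH 3′ minus 5′ signals of cs26 also differed between photoperiods without overlap, as did the Bacillus signal in both genotypes. The part of these markers and controls in the photoperiod differences of the members was not tested.

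ALDH6B2 and ALDH2C4 had the largest short-day falls. ALDH6B2 read 9.31 to 9.5 in long-day wild type and 8.04, 8.12 and 7.77 in short-day wild type, a fall of 1.43 ± 0.10 on the log2 scale or 2.69-fold (adjusted p = 1.4e-07). In cs26 its short-day values were 8.22, 8.05 and 8.08, and the fall was 0.98 on the log2 scale (difference -0.98 ± 0.10, adjusted p = 4.19e-06). The long-day values thus lay above all short-day values in both genotypes. ALDH2C4 read 10.63, 10.62 and 10.56 in long-day wild type, 10.64, 10.25 and 10.55 in long-day cs26, 9.33, 9.17 and 9.68 in short-day wild type and 9.17, 9.52 and 9.34 in short-day cs26. Both genotypes were lower in short days, with -1.21 ± 0.14 (2.31-fold, adjusted p = 1.55e-05) in wild type and -1.14 ± 0.14 (2.2-fold, adjusted p = 2.38e-05) in cs26, and neither genotype comparison nor the difference of effects was called.

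ALDH7B4 and ALDH11A3 went the other way, with higher short-day values in both genotypes. ALDH7B4 rose by 0.62 ± 0.10 (1.53-fold, adjusted p = 0.000311) in wild type and by 1.69 ± 0.10 (3.23-fold, adjusted p = 3.19e-08) in cs26, the largest of the 8 in the mutant. ALDH11A3 rose by 0.61 ± 0.10 (1.52-fold, adjusted p = 0.000258) and by 1.41 ± 0.10 (2.66-fold, adjusted p = 1.23e-07). For ALDH3F1 the wild-type arrays gave a difference of -0.003 (95% interval from -0.27 to 0.26), whereas cs26 rose by 0.81 ± 0.12 (adjusted p = 0.000144).

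The ALDH10 pair and ALDH22A1 were lower in short-day wild type. ALDH10A8 fell by 0.69 on the log2 scale (difference -0.69 ± 0.14, adjusted p = 0.00194), with short-day values of 9.14, 9.12 and 9.56. ALDH10A9 read 8.77, 8.65 and 8.86 in long days and 8.14, 8.09 and 8.5 in short days, a difference of -0.52 ± 0.15 (adjusted p = 0.0126, and 0.0539 without replicate 2 of short-day wild type). ALDH22A1 read 7.25, 7.07 and 7.03 in long days and 6.72, 6.65 and 6.95 in short days, a difference of -0.34 ± 0.11 (adjusted p = 0.0256). That last call was lost without replicate 1 of long-day wild type (0.104), without replicate 1 (0.0779) or 2 (0.0973) of short-day wild type and with a trended robust prior (0.0522).

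In cs26, ALDH10A9 was the only 1 of these 3 genes called between photoperiods. ALDH10A8 read 9.17, 9.6 and 9.17 in short days, a difference of -0.22 ± 0.14 that was called only without replicate 2 (-0.37, adjusted p = 0.0468). ALDH10A9 read 8.77, 8.67 and 8.67 in long days and 8.07, 8.67 and 8.19 in short days, with overlap. Its difference of -0.39 ± 0.15 was called (adjusted p = 0.0474), but not without replicate 1 (0.117), 2 (0.0813) or 3 (0.0868) of long-day cs26 or replicate 1 (0.184) or 3 (0.146) of short-day cs26, nor with only the 6 cs26 arrays (0.0786). Without replicate 2 of short-day cs26, the array with the widest deviations, it was -0.57 (adjusted p = 0.00203). ALDH22A1 read 6.91, 7.1 and 6.97 in long days and 6.81, 7.14 and 7.11 in short days, a difference of 0.03 (95% interval from -0.22 to 0.27).

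**Figure D3:**
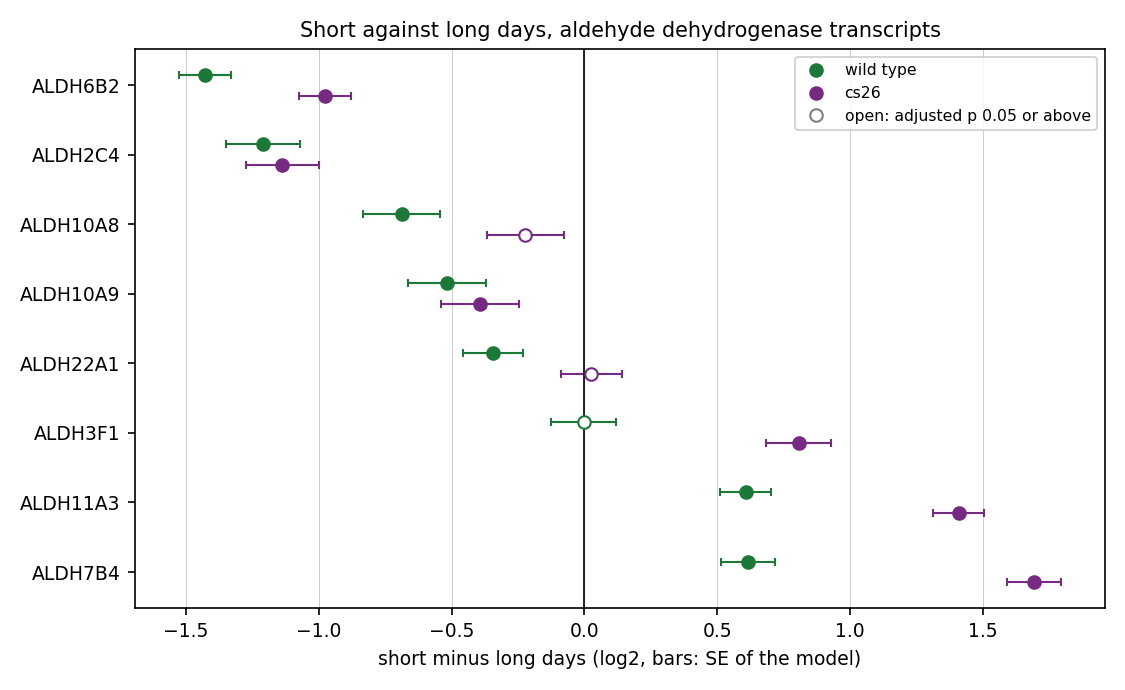
Difference of short from long days (log2) in wild type and in cs26 for the 8 genes, in order of the wild-type difference, with the SE of the model as bars and open symbols at an adjusted p of 0.05 or above. Values run from -1.43 (ALDH6B2, wild type) to 1.69 (ALDH7B4, cs26).

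Ordered by their means, the groups ran differently from gene to gene. For ALDH11A3 short-day cs26 was highest (11.12 ± 0.06, SD, n = 3), followed by short-day wild type (10.78 ± 0.19), long-day wild type (10.17 ± 0.05) and long-day cs26 (9.71 ± 0.10), and no neighbours in that order overlapped. For ALDH7B4 short-day wild type (9.47 ± 0.09) and short-day cs26 (9.40 ± 0.13) overlapped, and both lay above long-day wild type (8.85 ± 0.09) and long-day cs26 (7.70 ± 0.16). For ALDH3F1 only long-day cs26 (8.57 ± 0.16) lay apart, below long-day wild type (9.45 ± 0.05), short-day wild type (9.45 ± 0.15) and short-day cs26 (9.37 ± 0.22), which overlapped. For ALDH6B2 long-day wild type (9.40 ± 0.10) and long-day cs26 (9.09 ± 0.04) lay above the overlapping short-day cs26 (8.12 ± 0.09) and short-day wild type (7.98 ± 0.18). For ALDH2C4 the long-day groups overlapped, as did the short-day groups below them. For ALDH10A8 only long-day wild type (9.96 ± 0.04) lay apart from its neighbour, and for ALDH10A9 and ALDH22A1 all neighbours overlapped.

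ALDH7B4 had the largest range of group means, and its pattern was compared with those of 13348 other genes over the 12 arrays. The 5 most alike, by Pearson's r, were AT5G16030 (0.993), AT2G42320 (0.988), rps19 (0.984), AT1G52000 (0.984) and AT2G29670 (0.983). The points share 4 groups and the same arrays, so these are descriptions of a common group pattern. They were chosen for likeness to ALDH7B4 on these arrays, so the direction of their differences follows from the choice. All 5 differed downward in long-day cs26, from -2.62 for AT5G16030 to -1.19 for rps19, a plastid gene for a ribosomal protein. Their short-day differences from wild type lay between -0.30 (AT1G52000) and 0.17 (AT5G16030).

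Other enzymes that remove reactive carbonyls, listed by locus, were set beside the family. Of 13 reductases and glyoxalases 7 were measured, and in long days 4 fell in cs26 and none rose by limma (4 at an unadjusted p under 0.05), with a median of -0.38. Over all probe sets 24.6% were called there, 11.8% lower, and 41.7% in the fit on the brighter ones. AER, an alkenal reductase, fell by 0.47 (-0.47 ± 0.12, adjusted p = 0.0128), and AOR, the chloroplast alkenal/one oxidoreductase, fell by 0.38 (-0.38 ± 0.07, adjusted p = 0.0015). AT1G08110 (-0.52) and AT4G13010 (-0.40) were the other falls, and that of AT4G13010 was not called with wild-type replicate 2 (0.0801) or 3 (0.0715) or cs26 replicate 3 (0.0792) left out. In short days AOR alone was called, as a rise (0.37 ± 0.07, adjusted p = 0.00357), against 16.7% of all probe sets and 29.6% in the fit on the brighter ones. The difference of effects was called for the same 4 genes, from 0.53 to 0.76 (27.6% of all probe sets, and 45.5% in the fit on the brighter ones). It was called for AER and AOR in all 18 alternatives. AT4G13010 lost it without replicate 2 (0.0598) or 3 (0.0586) of long-day wild type, replicate 2 of short-day wild type (0.0572) or replicate 3 of long-day cs26 (0.0622). AT1G08110 lost it without replicate 1 (0.0711) or 3 (0.0581) of long-day wild type, replicate 1 (0.0553) or 2 (0.0614) of short-day wild type, replicate 2 (0.0549) or 3 (0.0585) of long-day cs26 or replicate 3 of short-day cs26 (0.057). AOR thus measured lower in long-day cs26 and higher in short-day cs26, as ALDH11A3 did. Against long days AOR was also higher in short days, by 1.69 in wild type and 2.45 in cs26.

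Beside ALDH6B2, 6 of 12 listed genes of branched-chain amino acid and lysine breakdown were measured. MCCA and MCCB, which encode the subunits of methylcrotonyl-CoA carboxylase in leucine breakdown, fell in long-day cs26 (-0.65 ± 0.15, adjusted p = 0.0049, and -0.58 ± 0.17, adjusted p = 0.0279). They were the only calls there, the other 4 lying between -0.32 and 0.06. Of all probe sets 24.6% were called in this comparison, 11.8% lower, and 41.7% were called in the fit on the brighter ones. The MCCB call was lost with wild-type replicate 1 (0.109) or 3 (0.106) or cs26 replicate 2 (0.103) or 3 (0.0609) left out. In short days limma called 0 of the 6 (1 at an unadjusted p under 0.05), against 16.7% of all probe sets and 29.6% in the fit on the brighter ones. The difference of effects was called for MCCB (1.09, adjusted p = 0.00517) and MCCA (0.87, adjusted p = 0.00696), against 27.6% of all probe sets and 45.5% in the fit on the brighter ones. IVD, the isovaleryl-CoA dehydrogenase, differed by -0.29 under long days and by -0.18 under short days.

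**Figure D4:**
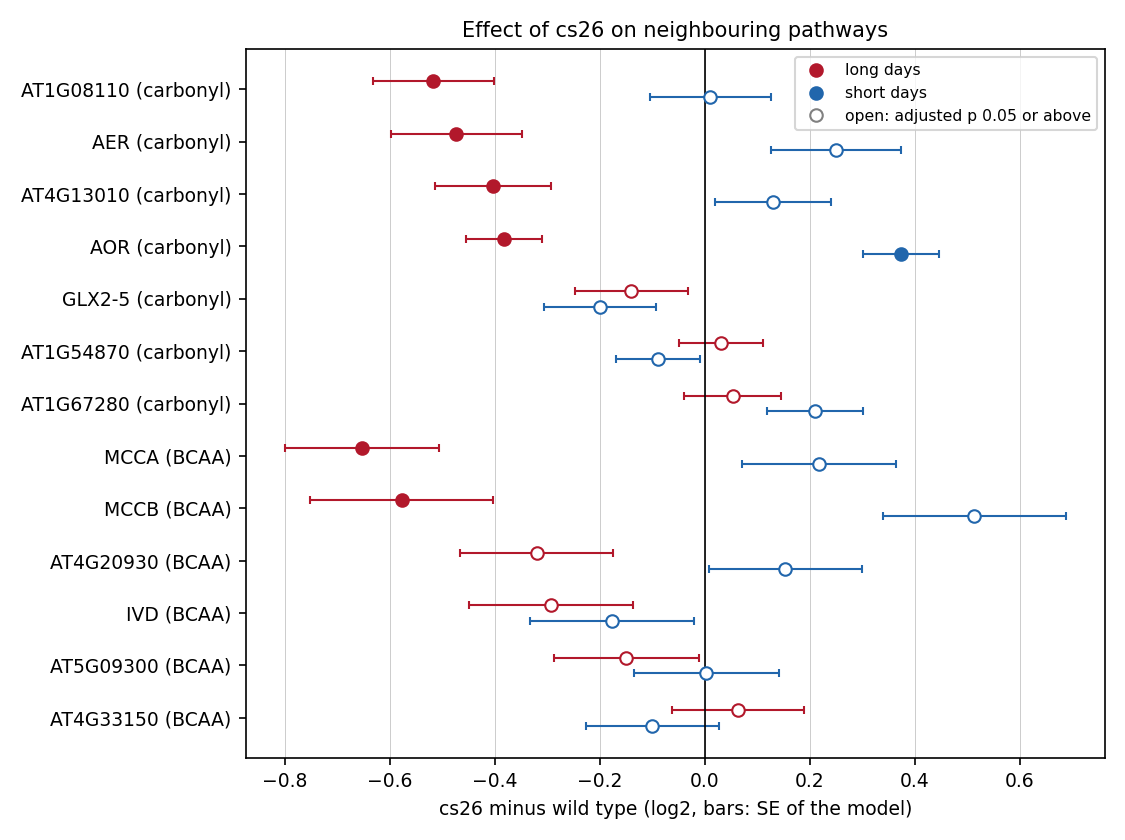
Difference of cs26 from wild type (log2) in long and in short days for the 7 measured reactive carbonyl reductases and glyoxalases (carbonyl) and the 6 measured genes of branched-chain amino acid and lysine breakdown (BCAA), with the SE of the model as bars and open symbols at an adjusted p of 0.05 or above. The filled long-day points all lie below 0, and AOR (0.37) is the only filled short-day point.

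Lists next to other members had few measured genes. For acetaldehyde and acetate, PDC2, a pyruvate decarboxylase, fell in cs26 in long days (-0.33, adjusted p = 0.0329) and rose in short days (0.43, adjusted p = 0.0127), and from long to short days it changed by -2.86 ± 0.10 in wild type. The long-day call of PDC2 was lost with wild-type replicate 1 (0.0841) or 3 (0.139) or cs26 replicate 1 (0.0819) or 2 (0.111) left out and with a trended robust prior (0.0531), and the short-day call without replicate 1 of wild type (0.0541). ACS, the acetyl-CoA synthetase, was called in neither genotype comparison (0.31 and -0.16). Of 6 proline genes 2 were measured. AT5G38710 rose 2.60 ± 0.14 in long-day cs26 (adjusted p = 4.2e-08), opposite to the ALDH members, and DELTA-OAT, the ornithine aminotransferase, measured -0.36 (adjusted p = 0.0512). Of 9 polyamine oxidation genes 3 were measured, and 2 rose in long-day cs26, AT1G31710 by 0.74 (adjusted p = 0.00625) and CuAO1, a copper amine oxidase, by 0.58 (adjusted p = 0.000169). AT2G42490, also measured, was not called there (-0.16, adjusted p = 0.7). Of all probe sets 24.6% were called between genotypes in long days, 12.8% higher and 11.8% lower, and 41.7% in the fit on the brighter ones. GAPC2, the phosphorylating cytosolic counterpart of ALDH11A3 and the only 1 of 7 listed genes measured, was not called between genotypes (-0.13 under long days, 0.04 under short days). The lists for the GABA shunt and for the phenylpropanoid steps beside ALDH2C4 had 0 genes that a probe set names alone in this annotation, and are not analysed here.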

How the data were processed

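Per the labels' protocols, biotin-labelled cRNA of each RNA sample was hybridised to an Affymetrix ATH1 array. Values were deposited as log2 numbers, and the submitters' processing notes name RMA and affy, which background-correct, quantile-normalise and summarise probe sets. The sources used here give neither versions nor whether all arrays were normalised together. RMA removes shifts shared by most transcripts and compresses differences of dim probe sets.

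From 22810 probe sets, 64 controls were left out. Group means of all 12 arrays were fitted with limma 3.58.1 (lmFit, eBayes) in R 4.3.3, with 8 residual degrees of freedom, after a check of the script on simulated data. Of 22746 probe sets, 13513 name 1 gene, and 13436 of these were matched to the gene table. The number of arrays limits the precision. The rule for named genes took all 8 members, full values for those called, and the 5 genes most like the member with the widest range. Members and lists were chosen with earlier results of these data known. The design text calls the arrays biological replicates, and no 2 arrays held identical values. Alternatives were quantile normalization, a brightness filter, a trended robust prior, array weights, a replicate block, a stricter threshold, the compared arrays alone and each array left out. A second probe set per member was planned, but each has 1.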

Additional observations from a re-analysis of the deposited data

Results flagged for a closer look

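The effect of cs26 differed between short and long days by the limma interaction contrast for 4 of the 8 genes, in each case upward from long to short days. These were ALDH7B4 (1.08), ALDH3F1 (0.81), ALDH11A3 (0.80) and ALDH6B2 (0.45). ALDH11A3 alone was called in both photoperiods, as a fall under long days and a rise under short days, and its short-day call was lost in 9 of 13 alternatives. Groups of 3 arrays are too small for a test of single outlying arrays.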

How the results depend on the processing

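Of 560 values of single members recomputed under other settings, 511 stayed on their side of the threshold, 39 lost their call, 10 gained one and 0 turned the direction of a call. Among the 511, 22 values not called in either fit changed sign, all with differences between -0.07 and 0.12 in the reported fit. The number of members called in long days was 3 to 5, for the difference of effects 3 to 5, for wild-type photoperiod 5 to 7 and for cs26 photoperiod 5 to 7. In short days the 1 call (ALDH11A3) became 0 with quantile normalization, the replicate block and the 6 short-day arrays alone, and the cause was not tested. It also became 0 at an adjusted p under 0.01, where the fit is unchanged and its adjusted p of 0.0297 lies above the threshold. Leaving out 1 array gave 3 to 4 calls in long days, 0 to 1 in short days, 3 to 5 for the difference, 5 to 7 for wild-type photoperiod and 5 to 7 for cs26 photoperiod. Same-numbered arrays of different groups did not deviate together (r from -0.31 to 0.162, over 0.1 in 2 of 18 pairs, and 1 of 12 arrays was closest to one of its own number). The values thus show no pairing by number. They cannot show whether same-numbered samples were grown or processed together. With the replicate block, 4 members were called in long days, 0 in short days, 4 for the difference, 7 for wild-type and 5 for cs26 photoperiod. It ended the calls of ALDH11A3 in short days (adjusted p = 0.0579), of ALDH10A9 between photoperiods in cs26 (0.0699), of TRY in long days (0.0637) and of AUR1 for the difference of effects (0.0739). For the genes of neighbouring lists and cell type markers the same alternatives were computed after the data had been seen. Signal over background was not assessed.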

Other observations

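Within groups, several members varied together from array to array. Over the 12 deviations from the group means, Pearson's r was 0.885 for ALDH10A8 and ALDH10A9, 0.762 for ALDH10A8 and ALDH2C4, and 0.751 for ALDH10A9 and ALDH2C4. It was also 0.777 for ALDH10A8 and ALDH11A3, and 0.752 for ALDH2C4 and ALDH7B4. ALDH3F1 had a negative r with ALDH10A8 (-0.706), ALDH10A9 (-0.762), ALDH2C4 (-0.343) and ALDH22A1 (-0.819). So did ALDH6B2, with -0.527, -0.691, -0.653 and -0.555 in the same order. These values are a description: the points share arrays and normalization, the deviations of a group sum to 0, and no test was made. On replicate 3 of short-day wild type ALDH10A8, ALDH10A9, ALDH2C4, ALDH11A3 and ALDH22A1 were the highest of their group (9.56, 8.5, 9.68, 10.97 and 6.95). On replicate 2 of short-day cs26 the same held (9.6, 8.67, 9.52, 11.18 and 7.14). ALDH3F1 (9.28 and 9.14) and ALDH6B2 (7.77 and 8.05) were the lowest of their group on both arrays. Over all probe sets these arrays deviated alike (r = 0.421, the highest for arrays of different groups). The cs26 array also had the widest deviations (SD 0.208). The part of this array-wide deviation in the correlations of the members was not tested.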
